A study of Homo sapiens with 2 samples.

Results

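The E2F transcription factors and the retinoblastoma family of pocket proteins were followed as 10 genes, E2F1 to E2F8, RB1 and RBL1, taken by gene name from a table of 58735 genes. All 10 passed the filter on low counts, a mean of at least 1 CPM (counts scaled by library size), as did 13942 genes in all, called measured genes here. The siCYP4F11 library came from NCI-H460 cells transfected with an siRNA against CYP4F11, a cytochrome P450 of fatty acid metabolism. The siControl library came from NCI-H460 cells of genotype label WT that were transfected without that siRNA. NCI-H460 is an established human large cell lung carcinoma line from a pleural effusion; the series' design text writes NCI-H469, and the name on the sample labels is used. Both cultures are given as 24 h after transfection and carry the same batch label, and the sequence of the siRNA is not given in the sources used here. There was 1 library per group, so no difference below has a replicate check, no p-value was computed, and every comparison is between these 2 libraries.

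E2F proteins bind gene promoters as heterodimers with a DP protein and set the transcription of genes for DNA replication and S phase. In resting and early G1 cells the pocket proteins hold them in repressing complexes, and phosphorylation of the pocket proteins by cyclin D and cyclin E kinases releases the activators. E2F1, E2F2 and E2F3 are the activators. E2F4 and E2F5 work mainly as repressors with RBL1 and RBL2, E2F6 represses without pocket proteins through Polycomb partners, and the atypical E2F7 and E2F8 repress without a DP partner and are themselves made in S phase from E2F-driven promoters.

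The siCYP4F11 library held 13002179 counts and the siControl library 16207785. CYP4F11 itself had 972 counts in siCYP4F11 and 3180 in siControl, a log2 ratio of siCYP4F11 over siControl of -1.40 (95% counting interval -1.51 to -1.30). Of 6 epithelial markers 4 were measured and all 4 had ratios below 0, with KRT8 at -0.30 (-0.33 to -0.26), KRT19 at -0.29, KRT18 at -0.08 and KRT7 at -0.08 (-0.29 to 0.14), while CDH1 had 0 and 1 counts and EPCAM 8 and 6 in siCYP4F11 and siControl. Of 5 leukocyte markers only CD14 was measured, with 33 counts in siCYP4F11 and 20 in siControl, at 1.01 (0.18 to 1.91), past 2-fold; PTPRC and CD3E had 0 in both libraries and LYZ 1 and 1. Of 6 fibroblast and endothelial markers 3 were measured and all 3 had ratios above 0. LUM, with 255 counts in siCYP4F11 and 209 in siControl, was at 0.59 (0.32 to 0.86), DCN, with 36 and 26, at 0.77 (0.01 to 1.56), both past 1.5-fold, and COL1A1 at 0.26 (-0.47 to 0.998), while PECAM1 and VWF had 0 counts in both. The part of these markers in the results below was not tested. Log2 ratios moved with base composition: among genes with a mean of at least 10 CPM, the median ran to 0.15 in the lowest of 10 equal bins of transcript GC content and to -0.13 in the highest. With a correction for this relation 2 of the 4 epithelial markers were above 0, and the 3 fibroblast markers stayed above 0 with 0 past the 1.5-fold rule, which also asks that the interval excludes 0. Corrected ratios are therefore given beside those of the members that base composition moves most, and its part in them was not tested beyond that correction.

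Several E2F and pocket protein genes carry E2F sites in their own promoters. The proximal promoters shown are those of the 4 genes with a match to the motifs below, and that of E2F7. Sequences are those of RefSeq on GRCh38.p14, used for 8 of the 10 genes, all but E2F5 and E2F8. They are read 5′ to 3′ on the gene's strand. Each line holds the last 100 bases before the start site, and capitals mark matches to TTTCCCGC, TTTGGCGC, TTTCGCGC or TTTGCCGC on either strand.
E2F1, chr20:33686386-33686485, minus strand: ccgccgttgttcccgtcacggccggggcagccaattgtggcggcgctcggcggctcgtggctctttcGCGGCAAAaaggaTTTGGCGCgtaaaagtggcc
E2F2, chr1:23531234-23531333, minus strand: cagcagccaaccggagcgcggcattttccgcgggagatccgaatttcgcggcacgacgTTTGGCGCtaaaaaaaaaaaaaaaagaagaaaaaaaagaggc
E2F3, chr6:20401779-20401878, plus strand: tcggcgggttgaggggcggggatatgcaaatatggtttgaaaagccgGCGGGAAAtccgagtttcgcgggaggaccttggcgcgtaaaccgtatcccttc
RBL1, chr20:37095998-37096097, minus strand: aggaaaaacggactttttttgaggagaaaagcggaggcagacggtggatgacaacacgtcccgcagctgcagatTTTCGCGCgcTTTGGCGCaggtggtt
E2F7, chr12:77065570-77065669, minus strand: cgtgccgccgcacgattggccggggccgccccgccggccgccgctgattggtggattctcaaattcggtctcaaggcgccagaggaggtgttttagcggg

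Over the 250 bases before the start site, E2F1 and RBL1 had 2 matches each and E2F2 and E2F3 had 1 each. The matches of E2F1 began 33 and 20 bases before its start site and those of RBL1 26 and 16 bases before. E2F4, E2F6, E2F7, the second E2F3 start site and the RB1 entry, which lies within the gene, had 0. Of all 35116 RefSeq promoters, 2.79% held at least 1 match in the same window. A match describes these letters and is not evidence of binding, and 0 matches in the window says nothing of sites elsewhere.

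E2F7 was the member that differed most. The gene (ENSG00000165891, chromosome 12, 77021247 to 77065580, minus strand, GRCh38) had 614 counts in the siCYP4F11 library and 451 in siControl, although siCYP4F11 was the shallower library. This was 47.0 CPM against 27.9 CPM, so the siCYP4F11 library was the higher one, 1.68 times the other, at a log2 ratio of 0.75 (0.57 to 0.93). Of 4243 measured genes at a mean of 30 to 100 CPM, 11 had a ratio at least as large in size, which is 0.259%. E2F7 is known as a target of both E2F1 and p53, and its protein represses E2F1 and other G1/S genes. In a bulk culture, more cells in a phase that makes a transcript and more of that transcript per cell cannot be told apart.

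E2F8, the other atypical repressor and the partner with which E2F7 forms dimers, lay on the same side. It had 186 counts in siCYP4F11 and 165 in siControl, or 14.2 CPM against 10.2 CPM. Its log2 ratio was 0.48 (0.17 to 0.79), short of 1.5-fold. This ratio was inside the range that holds 95% of the 3286 genes at 10 to 30 CPM, which ran from -0.57 to 0.50. With their counts summed, E2F7 and E2F8 had 800 counts in siCYP4F11 and 616 in siControl, at 0.68 (0.53 to 0.84).

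**Figure D1:**
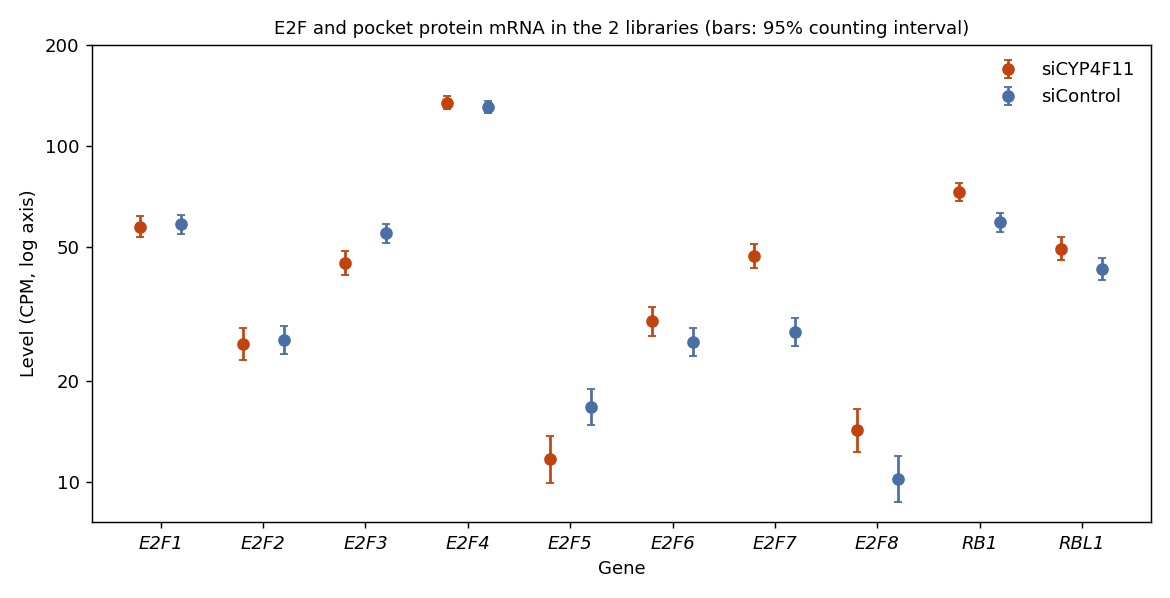
Level of each E2F and pocket protein gene in CPM on a log axis, with siCYP4F11 left of siControl for each gene and bars for the exact 95% counting interval of each library. The intervals of the libraries lie apart for E2F7, at 47.0 against 27.9 CPM, for E2F3, E2F5, E2F8 and RB1, and overlap for the other genes.

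The activators did not move together. E2F1 (ENSG00000101412, chromosome 20, 33675683 to 33686404) had 750 counts in siCYP4F11 and 943 in siControl, which is 57.5 CPM against 58.4 CPM. Its log2 ratio was -0.02 (-0.16 to 0.12), so a difference was not detectable at this depth. E2F2, an activator on chromosome 1, had 336 and 427 counts in the same order, 25.7 CPM against 26.5 CPM, at -0.04 (-0.25 to 0.17). Both are rich in G and C, and with the correction for base composition their ratios changed sign, to 0.11 (-0.03 to 0.25) for E2F1 and 0.06 (-0.15 to 0.27) for E2F2.

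E2F3 was the activator with a difference beyond counting error. The gene (ENSG00000112242, chromosome 6, 20401906 to 20493715, plus strand) had 584 counts in siCYP4F11 and 886 in siControl, 44.7 CPM against 54.9 CPM. The siCYP4F11 library was lower, at a log2 ratio of -0.29 (-0.45 to -0.14), and at -0.31 with the correction for base composition. Of the genes at its level, 15.3% had a ratio at least as large in size. E2F3 has start sites for a longer activator form and a shorter form with repressor activity, and counts per gene do not separate them.

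Among the canonical repressors, E2F5 was lower, E2F4 showed no detectable difference and E2F6 was marginal. E2F4, the main partner of RBL1 and RBL2 in resting cells, was the most abundant member, with 1756 counts in siCYP4F11 and 2108 in siControl. At 134.5 CPM against 130.6 CPM its log2 ratio was 0.04 (-0.05 to 0.13), and 0.16 (0.06 to 0.25) with the correction for base composition. E2F5, on chromosome 8 from 85177225 to 85217158, had 153 counts in siCYP4F11 and 270 in siControl, 11.7 CPM against 16.7 CPM. Its log2 ratio of -0.51 (-0.81 to -0.22) was inside the range of 95% of genes at its level, and was -0.63 (-0.93 to -0.34) after the correction, outside the corrected range of -0.54 to 0.47 and past 1.5-fold. C8orf59 on the opposite strand shares 969 exon bases with E2F5, 16.3% of the exon bases of E2F5. C8orf59 had 268 counts in siCYP4F11 and 282 in siControl. The strand and overlap settings of the counting are not given in the sources used here. E2F5 may thus have gained or lost reads in the shared bases.

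E2F6, the repressor that works with Polycomb proteins, had 393 counts in siCYP4F11 and 421 in siControl, 30.1 CPM against 26.1 CPM. Its log2 ratio was 0.21 (0.01 to 0.41), and 0.18 (-0.02 to 0.38) after the correction. Its transcripts share 11.6% of their 50-base words with other genes, nearly all with processed copies. These copies, E2F6P1, E2F6P2 and E2F6P3, had 0 counts in both libraries. By shared words alone, the value of E2F6 is less certain than that of the other members. The other members shared at most 1.17% of theirs.

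Both pocket protein genes were higher in siCYP4F11 by small margins. RB1, the retinoblastoma tumour suppressor (ENSG00000139687, chromosome 13, 48303726 to 48599436), had 951 counts in siCYP4F11 and 957 in siControl, 72.8 CPM against 59.3 CPM. Its log2 ratio was 0.30 (0.17 to 0.43), which 15.0% of genes at its level matched or passed in size. RBL1, which encodes p107 and is an E2F target, had 645 counts in siCYP4F11 and 696 in siControl, 49.4 CPM against 43.1 CPM, at 0.20 (0.04 to 0.35). RB1 and RBL1 transcripts are poor in G and C, at 37.3% and 40.0%, and after the correction the ratios were 0.16 (0.03 to 0.29) for RB1 and 0.10 (-0.06 to 0.26) for RBL1.

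**Figure D2:**
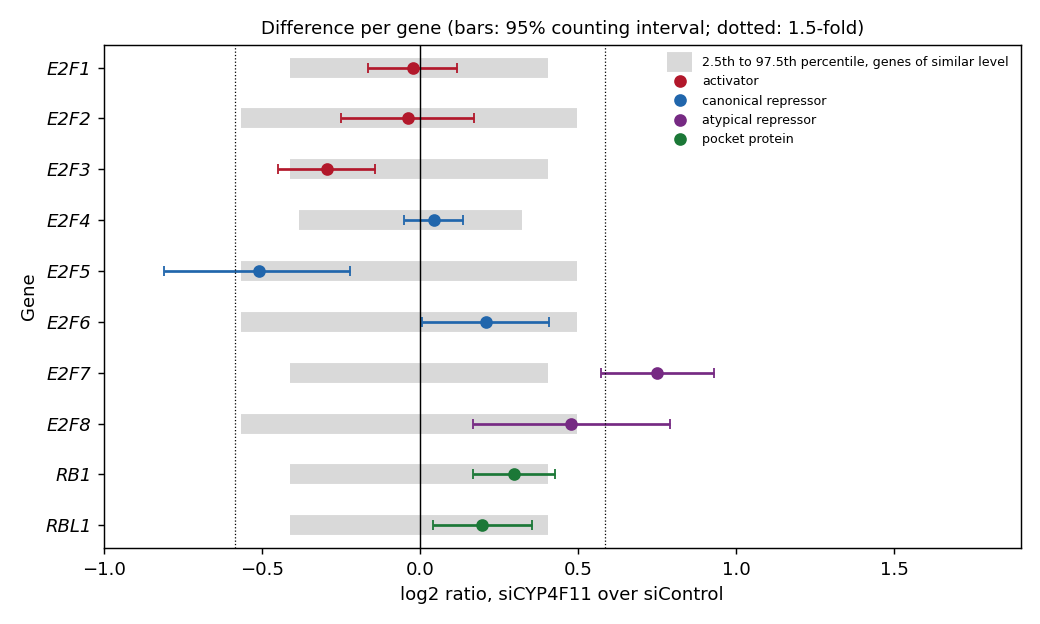
Log2 ratio of siCYP4F11 over siControl for each gene, coloured by role, with bars for the 95% counting interval, grey bands for the range of 95% of measured genes at a similar level and dotted lines at 1.5-fold. E2F7 at 0.75 is past the dotted line and outside its band, and the other 9 lie inside theirs.

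By a rule of at least 1.5-fold with a counting interval that excludes 0, 1 of the 10 members was called, E2F7, against 5.47% of all measured genes in either direction and 1.56% of the 9591 with a mean of at least 10 CPM, as all members have. Higher calls by this rule made up 2.04% of measured genes and 0.49% of those with at least 10 CPM. By the same rule at 2-fold, 0 of 10 were called, against 1.96% of measured genes. The counting interval alone excluded 0 for 7 members, where it did so for 37.8% of measured genes and 46.7% of those with at least 10 CPM. It lay above 0 for 5 members, against 18.6% and 23.7% of those genes, and below 0 for 2, against 19.2% and 23.1%. With the correction for base composition it lay above 0 for 4 members and below for 2. The intervals of E2F6 and RBL1 then included 0, and that of E2F4 lay above it. Of the 13942 measured genes, 2343 corrected intervals lay above 0 and 2391 below. The median log2 ratio of the members was 0.12, beside -0.01 over all measured genes.

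**Figure D3:**
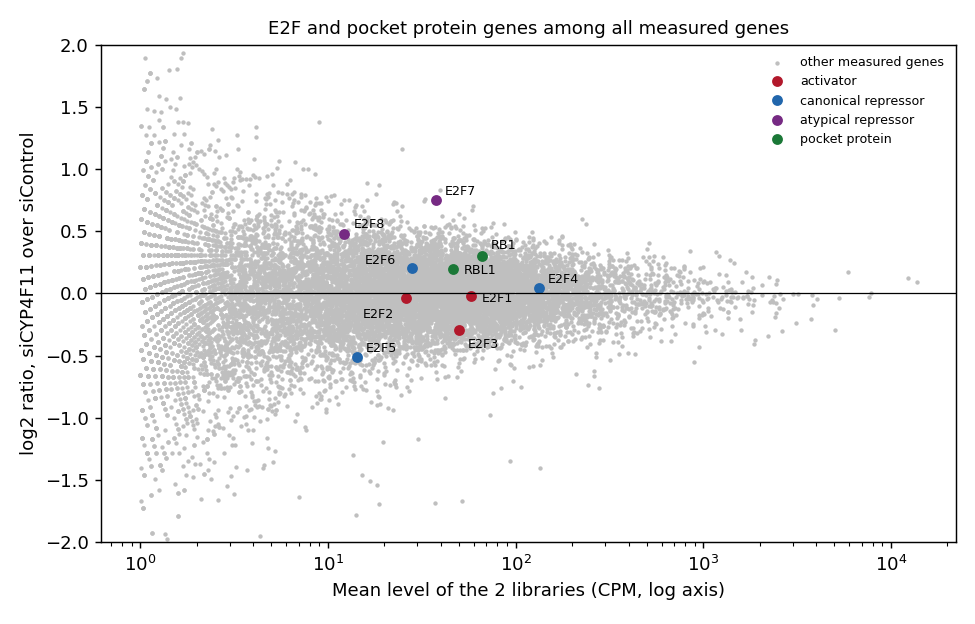
Log2 ratio of siCYP4F11 over siControl against the mean level in CPM (log axis) for all measured genes in grey and the 10 members coloured by role; 21 measured genes lie beyond the plotted limit of 2. E2F7 stands at the upper edge of the cloud at its level and E2F8 and E2F5 are nearer to the edges than the rest.

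The balance of activator to repressor E2F transcripts was lower in siCYP4F11. Counts of the activators E2F1, E2F2 and E2F3 summed to 1670 in siCYP4F11 and 2256 in siControl, and those of the repressors E2F4 to E2F8 to 3102 and 3415 in the same order. Activators made up 35.0% of E2F counts in siCYP4F11 (33.6% to 36.4%, exact Clopper-Pearson) and 39.8% in siControl (38.5% to 41.1%). The log2 ratio of the activator to repressor balance between the libraries was -0.30 (-0.41 to -0.18), a value that does not depend on library size. The 3 activators had ratios below 0, E2F1 and E2F2 above it after the correction for base composition, and 4 of the 5 repressors had ratios above 0, E2F5 being the exception.

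The difference in balance was larger against the atypical repressors than against the canonical ones. Against E2F7 and E2F8 alone the activator balance was at -0.81 (-0.99 to -0.63), against E2F4, E2F5 and E2F6 at -0.15 (-0.27 to -0.03), and against E2F4 and E2F5 at -0.12 (-0.24 to 0.01). With the correction for base composition these were -0.70, -0.15 and -0.14 (-0.27 to -0.01), and the balance to all repressors was -0.27 (-0.38 to -0.15). Without E2F7 the balance of all activators to all repressors was at -0.18 (-0.30 to -0.06), without E2F3 at -0.20 (-0.33 to -0.06) and without E2F4 at -0.48 (-0.62 to -0.33). Atypical repressors took 16.8% of E2F counts in siCYP4F11 (15.7% to 17.9%) and 10.9% in siControl (10.1% to 11.7%). Canonical repressors took 48.2% and 49.4% in the same order, with intervals that overlap.

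Ratios between single genes within a library do not depend on library size, but they keep the relation with base composition, so corrected values stand beside those that it moves. E2F7 had 0.819 counts per E2F1 count in siCYP4F11 and 0.478 in siControl, a log2 difference of 0.78 (0.55 to 1.003), and 0.60 (0.37 to 0.83) with the correction. Against E2F3, E2F7 was at 1.05 in siCYP4F11 and 0.509 in siControl, a log2 difference of 1.05 (0.81 to 1.28) and 1.02 with the correction. In siCYP4F11 the 614 counts of E2F7 and 584 of E2F3 lay within counting error of each other, and per length E2F3 was above E2F7 in both libraries. The ratio of E2F7 to E2F8 was 3.30 in siCYP4F11 and 2.73 in siControl, at 0.27 (-0.09 to 0.63), and that of RB1 to RBL1 was 1.47 and 1.38, at 0.10 (-0.10 to 0.31), so neither of these pairs differed beyond counting error. RB1 and RBL1 together had 0.956 counts per activator count in siCYP4F11 and 0.733 in siControl, at 0.38 (0.25 to 0.52). With the correction this was 0.19 (0.05 to 0.33), as the pocket protein genes are poor and E2F1 and E2F2 rich in G and C. A total of 15 such ratios were computed.

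**Figure D4:**
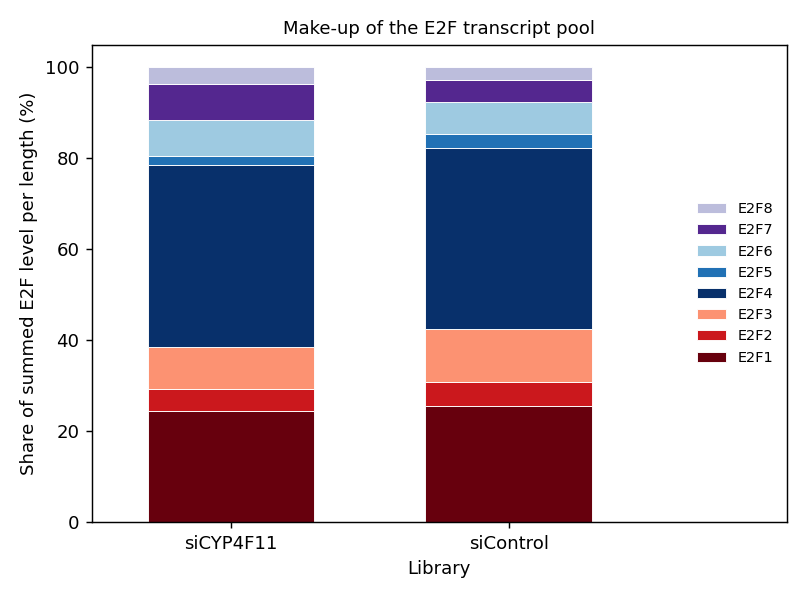
Share of each E2F gene in the summed E2F level per length, in percent, for siCYP4F11 on the left and siControl on the right. E2F4 holds 39.9% in both libraries, while E2F7 holds 7.92% in siCYP4F11 and 4.85% in siControl.

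Levels of different genes were compared per length, as TPM from the deposited counts and gene lengths, a scale on which all genes of a library sum to the same total. E2F4 led at 119 TPM in siCYP4F11 and 116 TPM in siControl, followed by E2F1 at 72.9 and 74.4 TPM. RB1 was at 35.9 TPM in siCYP4F11 and 29.3 TPM in siControl, E2F3 at 27.5 and 33.9, RBL1 at 26.3 and 23.1, and E2F6 at 23.5 and 20.4. E2F7 was at 23.7 TPM in siCYP4F11, next to E2F6 and RBL1, and at 14.1 TPM in siControl, next to E2F2 at 15.5. E2F2 was at 15.0 TPM in siCYP4F11, and E2F8 and E2F5 came last in both libraries, E2F8 at 10.9 TPM in siCYP4F11 and 7.87 in siControl and E2F5 at 6.28 and 8.99. E2F3 and RB1, neighbours in this order in both libraries, changed places between them. The counting intervals of neighbours overlapped for E2F3 and RBL1, RBL1 and E2F7, and E2F7 and E2F6 in siCYP4F11. In siControl they overlapped for RBL1 and E2F6, E2F2 and E2F7, and E2F5 and E2F8, so these pairs are not ordered beyond counting error. In that same unit the 3 activators summed to 38.6% of the E2F level in siCYP4F11 and 42.5% in siControl.

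Genes that act with or on the family were described from lists. Of the DP partners, TFDP1 had 1695 counts in siCYP4F11 and 2238 in siControl, at -0.09 (-0.19 to -0.003), TFDP2 421 and 480, at 0.12 (-0.08 to 0.31), and TFDP3 0 in both. The third pocket protein RBL2, named after its value was seen, was at 0.03 (-0.11 to 0.18). The next list held RBL2, MYBL1, MYBL2, FOXM1 and genes of the MuvB complex, which joins E2F4 and the pocket proteins on cell cycle promoters. Of its 9 genes 0 were called at 1.5-fold, and the median was 0.04. LIN54, the DNA-binding subunit of MuvB, was at 0.25 (0.07 to 0.42), and LIN9 at 0.18 (0.001 to 0.36).

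The list of cyclins, their kinases and a phosphatase of those kinases had 11 measured genes. Of these, 1 was higher and 1 lower at 1.5-fold, with a median of -0.01. CCNE2, a cyclin of the G1/S transition and an E2F target, had 86 counts in siCYP4F11 and 63 in siControl, at 0.75 (0.27 to 1.25). CCND2, a D-type cyclin and the only gene past 2-fold in the lists of cell cycle genes and E2F partners, had 12 counts in siCYP4F11 and 37 in siControl, at -1.28 (-2.39 to -0.35), and shares 13.2% of its 50-base words with other genes. The 1.5-fold rule called 5.47% of all measured genes. At a mean of 1 to 3 CPM, the level of CCND2, it called 15.1%. At 3 to 10 CPM, the level of CCNE2, it called 13.2%. CCNA2, the S and G2 cyclin, was at 0.45 (0.34 to 0.57). With the correction for base composition the ratios of these 11 genes ran from -1.29 to 0.61. The 1.5-fold calls were then again 1 higher and 1 lower. Of 4 measured CDK inhibitors 0 were called at 1.5-fold. CDKN1A was at 0.42 (0.31 to 0.54) and CDKN2C at 0.37 (0.19 to 0.55). CDKN2A and CDKN2B, named after their values were seen, had 0 counts in both libraries, below the floor of 3 counts, which is 0.230 CPM in siCYP4F11 and 0.186 CPM in siControl.

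Of 18 corepressors of pocket proteins 0 were called at 1.5-fold, with a median of 0.07. SMARCA4, the chromatin remodelling ATPase, had 1412 counts in siCYP4F11 and 2606 in siControl, at -0.58 (-0.67 to -0.48), just short of 1.5-fold. SUV39H1 was at 0.38 (0.15 to 0.61) and RBBP8 at 0.32 (0.19 to 0.44). With the correction for base composition the ratios of the corepressors ran from -0.45 to 0.48. Of 12 Polycomb genes around E2F6 0 were called, with a median of -0.02, YAF2 at 0.27, MGA at -0.22 and EZH2 at 0.22. Of 16 genes of E2F turnover and coactivation 0 were called, and the median was -0.17. The counting interval lay below 0 for 7 (43.8%) and above for 3 (18.8%), where among genes with at least 10 CPM the shares were 23.1% and 23.7%. With the correction for base composition the median was -0.13, with 6 intervals below 0 and 2 above. The corrected ratios of these 16 genes ran from -0.42 to 0.20. In this list KAT5 was at -0.52 (-0.82 to -0.24), EP300 at -0.43 (-0.56 to -0.30) and HCFC1, a coactivator that binds E2F1, at -0.41 (-0.52 to -0.31).

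Target genes of the E2Fs at G1/S lay on both sides of 0. Of 70 measured targets 1 was higher and 0 lower at 1.5-fold, with a median of 0.07. The counting interval lay above 0 for 26 (37.1%) and below for 19 (27.1%), where the shares over genes with at least 10 CPM were 23.7% and 23.1%. These counts were 28 and 16 with scaling by total counts, and 23 and 12 with the correction for base composition. DCK, a nucleoside kinase, was the called gene, with 532 counts in siCYP4F11 and 392 in siControl, at 0.75 (0.56 to 0.94). With the correction the ratios of the 70 targets ran from -0.48 to 0.63, and 1 was higher at 1.5-fold. Replication licensing and origin genes had a median of -0.08 over 20, with ORC1, the largest subunit of the origin recognition complex, at -0.50 (-0.72 to -0.29), GINS3 at 0.47 and GINS2 at 0.34. Polymerase and fork genes had a median of 0.08 over 23, with TIMELESS at -0.54, PCNA, the sliding clamp, at 0.36 and POLE2 at 0.33. Nucleotide supply genes had a median of 0.13 over 8, with RRM1 at 0.28 and CTPS1 at -0.20. Repair and chromatin genes had a median of 0.13 over 19, with UHRF1, which shares 21.1% of its 50-base words with other genes, at -0.44 and RAD51AP1 at 0.41.

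Of 30 G2/M genes controlled through the MuvB complex 0 were called at 1.5-fold, with a median of 0.05. The counting interval lay above 0 for 10 (33.3%) and below for 4 (13.3%), and with the correction for 8 and 6. Over genes with at least 10 CPM, not matched to the levels of this list, the shares were 23.7% and 23.1%. CDK1, the mitotic kinase, was at 0.56 (0.49 to 0.63) and AURKA at -0.30 (-0.37 to -0.24). With the correction the ratios of the 30 genes ran from -0.33 to 0.42. Of the genes held as references for cycling state and scaling, MKI67, a marker of proliferating cells, was at -0.12 (-0.17 to -0.07), on the other side of 0 from PCNA at 0.36. The housekeeping genes GAPDH, ACTB and TBP were at -0.04, 0.07 and 0.18 (-0.05 to 0.41). Of 12 listed apoptosis genes that E2F1 can activate 9 were measured, and all 9 had ratios above 0. Their median was 0.22, with 6 intervals above 0 (66.7%). TP73, BIK and HRK, named after their values were seen, were below the filter. Their counts were 6, 5 and 9 in siCYP4F11 and 15, 4 and 6 in siControl, in that order. Over all measured genes 49.2% had ratios above 0 and 18.6% had intervals above it, 23.7% among those with at least 10 CPM. APAF1, the apoptosome scaffold, was at 0.50 (0.30 to 0.70) and BBC3 at 0.36, and several of these genes are p53 targets as well. After the correction for base composition 8 of the 9 were above 0, 5 with their intervals. Of 11 germline genes in a list based on E2F6 repression in mouse, 2 were measured, STK31 and ZCWPW1, and 0 were called.

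**Figure D5:**
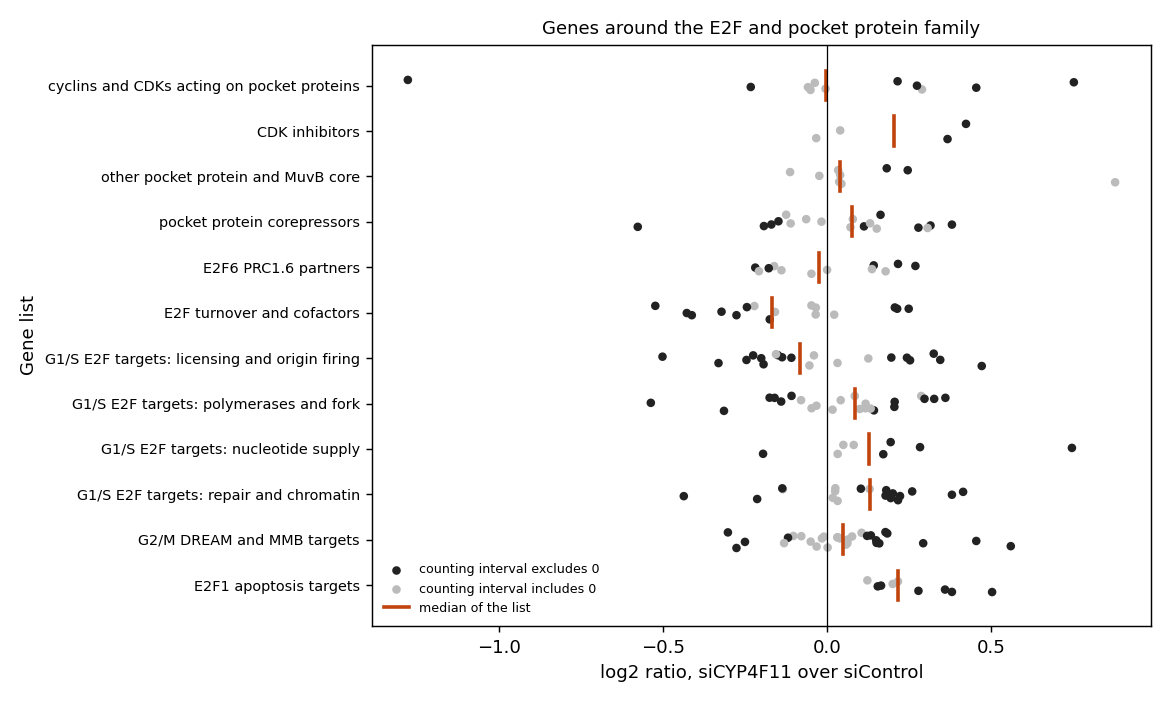
Log2 ratio of siCYP4F11 over siControl for each measured gene of 12 lists, with dark points where the 95% counting interval excludes 0 and a bar at the median of each list. Medians run from -0.17 for E2F turnover and cofactors to 0.22 for the E2F1 apoptosis targets.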

How the data were processed

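The authors deposited 1 table of raw read counts per gene for both libraries, whole numbers that are not normalised, with gene lengths. Poly-A RNA was made into strand-specific dUTP libraries, per the labels' protocols. HISAT2 2.2.1, fastp, featureCounts 2.0.6 and edgeR 4.0.16 are named with GRCh38, per the submitters' processing notes; their roles and settings are not given in the sources used here. All 58735 gene identifiers are in GENCODE release 29, which supplied transcripts and exons.

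Effective library sizes came from TMM in edgeR 4.0.16 (R 4.3.3), with factors of 1.004 for siCYP4F11 and 0.996 for siControl. Log2 ratios are of siCYP4F11 over siControl after 0.5 was added to each count. Intervals are exact 95% Clopper-Pearson intervals of the siCYP4F11 share of a gene's counts, and exact conditional intervals for ratios between genes. Counting error is all that these intervals hold, and the reads carry no molecular identifiers, so they are not independent molecules. No count test was run, as it needs replicates. Genes with a mean of at least 1 CPM were kept. The correction for base composition was a lowess fit (span 0.3) on the GC content of each gene's longest transcript. The calculations were tested on simulated counts. Python 3.11.15, scipy 1.17.1 and statsmodels 0.14.6 were used.

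The members and the 23 lists were chosen with earlier results of these data known. All members are named. Of each other list, the genes past 2-fold, the 3 largest ratios whose interval excludes 0, and every gene of lists of up to 5 are named, with the exceptions marked; genes that this rule names are in places not reported here. For ratios between genes, the correction multiplied each siCYP4F11 count by the fold that matches the log2 shift of its gene. The counting interval was moved with the value.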

Additional observations from a re-analysis of the deposited data

How the results depend on the processing

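Scaling by total counts, DESeq2 1.42.0 size factors or upper quartile and 2 added to each count left each member's ratio inside its counting interval. The changes of filter were no filter, a mean of at least 5 CPM and protein-coding genes alone. These only choose which genes are kept, so a member's ratio could not change. E2F7 ranged from 0.71 to 0.76, E2F3 from -0.31 to -0.28, E2F5 from -0.63 to -0.50 and CYP4F11 from -1.40 to -1.34 over all alternatives. With the GC correction E2F4 moved to 0.16, RB1 moved to 0.16, and 1 member, E2F5, was called lower at 1.5-fold where 0 were before; E2F1 and E2F2 changed sign inside their intervals. The log2 activator to repressor balance stayed below 0 throughout but moved to -0.15 with E2F4 to E2F6 as repressors, -0.12 with E2F4 and E2F5, -0.81 with E2F7 and E2F8, and -0.48 with E2F4 left out, since each changes the genes summed. It was -0.23 per length and -0.22 by mean ratios with the GC correction. At 4-fold 0 members were called. Adding the counts of the E2F6 copies, chosen after the data were seen, could not move E2F6 from 0.21, as the copies had 0 counts in both libraries. Among G1/S targets the intervals above and below 0 numbered 23 and 12 with the GC correction, against 26 and 19. Applied to ratios between members, a step also chosen after the data were seen, it moved RB1 and RBL1 over the activators to 0.19 and RB1 over E2F1 to 0.06, from 0.38 and 0.32; the cause of the other shifts was not tested. No paired analysis was possible because each group has 1 library. Depth limits E2F5 and E2F8 most, the members with the fewest counts.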
